A study of Homo sapiens with 6 samples.

Results

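The replication-dependent histone genes supply the core and linker histones that package newly copied DNA. They were chosen here by symbol from the platform annotation: every probe set with a gene symbol beginning H2AC, H2BC, H3C or H4C and a number, or with one of the linker symbols H1-1 to H1-5. The rule found 69 probe sets of the 54675 on the array, and these carry 63 distinct symbols. A probe set is the group of short probes whose combined signal stands for a transcript. By class, 5 probe sets belong to linker histone H1, 16 to H2A, 20 to H2B, 10 to H3 and 16 to H4, and 2 carry symbols of both H2A and H3. A single symbol is given for 49 of them and several for 20, since many of these genes have nearly identical coding sequences.

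ZFX, a zinc-finger transcription factor, was silenced with short hairpin RNAs in cultured leukaemia cells, and RNA was measured on 6 one-colour Affymetrix arrays. Jurkat is an established T-cell acute lymphoblastic leukaemia line, and K562 is an established chronic myeloid leukaemia line with erythroid features. Each line has 1 control array, 1 array of cells carrying the ZFX hairpin 381 and 1 of cells carrying the ZFX hairpin 1012. Each array holds a pool of equal RNA amounts from 3 replicates, so no array shows the spread between cultures. Hairpins were delivered by lentivirus, infected cells were sorted by fluorescence, and cells were grown in RPMI-1640 medium with serum. Both hairpins carry the label shZFX#1 and are told apart by 381 and 1012. The protocol describes a control hairpin, shNC, for the control cells, whereas the sample labels call them normal cells, and the sources used here do not settle which was hybridised. Each line is a single cell line, so a difference between lines describes Jurkat and K562 and no wider class of cells.

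Most of these genes lie in clusters and are transcribed mainly in S phase, when the coactivator NPAT assembles at histone loci. Their messenger RNAs usually end in a stem-loop bound by SLBP in place of a poly(A) tail, and they are destroyed when replication stops. Some of the genes, among them H1-2, H2AC6, H2BC5, H2BC12 and H2BC21, are also known to give polyadenylated transcripts. The labelling kit was a 3' IVT kit, which starts from an oligo(dT) primer, so the signals chiefly report polyadenylated RNA and not the whole histone messenger pool. Symbols in the RefSeq gene table carried older names of the HIST1 cluster for 55 of the 63 genes, of the HIST2 cluster for 5, and of HIST3 and HIST4 for 1 each. H2BC12L carried none of these, and 2 of the 63 genes, H2AC5P and H4C10P, are pseudogenes.

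RefSeq promoters on build GRCh38.p14 were found for 55 of the 63 genes. The 120 bases before the start of 6 genes are printed here because they include members with some of the largest differences between the lines and 1 divergent pair, H2AC6 and H2BC4. Capitals mark matches, on either strand, to CCAAT (read as ATTGG on the other strand), to TATAAA, or to the octamer ATTTGCAT, the letters bound by the POU factor POU2F1 in H2B promoters.
H1-2, chr6:26056471-26056590, minus strand: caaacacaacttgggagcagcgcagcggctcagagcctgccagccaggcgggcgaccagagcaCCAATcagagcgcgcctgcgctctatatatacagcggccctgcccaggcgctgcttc
H2AC6, chr6:26124052-26124171, plus strand: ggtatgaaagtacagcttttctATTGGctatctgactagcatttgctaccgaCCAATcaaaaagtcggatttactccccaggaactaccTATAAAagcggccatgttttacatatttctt
H2BC4, chr6:26123927-26124046, minus strand: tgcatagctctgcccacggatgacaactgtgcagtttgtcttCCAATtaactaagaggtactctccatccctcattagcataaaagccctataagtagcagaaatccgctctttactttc
H2BC12, chr6:27146859-27146978, minus strand: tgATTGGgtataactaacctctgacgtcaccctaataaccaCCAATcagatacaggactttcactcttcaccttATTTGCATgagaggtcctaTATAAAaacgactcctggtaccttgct
H2BC21, chr1:149886683-149886802, minus strand: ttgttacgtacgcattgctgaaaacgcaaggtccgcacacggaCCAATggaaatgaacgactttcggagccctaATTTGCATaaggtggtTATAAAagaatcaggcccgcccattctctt
H4C8, chr6:26285535-26285654, minus strand: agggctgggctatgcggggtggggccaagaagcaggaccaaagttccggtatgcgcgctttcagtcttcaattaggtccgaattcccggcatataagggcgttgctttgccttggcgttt

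The octamer was present in the 250 bases before the start of 13 of 16 H2B genes, 8 of 13 H2A genes, 1 of 8 H3 genes, 0 of 5 H1 genes and 0 of 13 H4 genes, against 1.63% of 35116 promoters of the same length. CCAAT stood in 45 of the 55 histone promoters, including every H1, H2A, H2B and H3 promoter held but only 3 of 13 H4 promoters, against 32% of all promoters. TATAAA stood in 36 of 55 (65.5%), against 10.7% of all promoters. The letters AGGCCT, the core of the motif known for ZFX, stood in 6 of 55 (10.9%), against 9.2% of all promoters. Both strands were searched, matches of different motifs may overlap, and the windows of a divergent pair overlap, so 1 match can count for both of its genes. The H3 gene with the octamer, H3C4, has the same window in the RefSeq table as H2AC7, so its match is that of H2AC7 counted again. A match is a description of letters and not a bound site.

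On the array, these genes were much brighter in K562 than in Jurkat cells. Of all 69 probe sets, 49 (71%) were higher on each of the 3 K562 arrays than on any Jurkat array, against 21.2% of the 54613 features that are not array controls. Only 2 (2.9%) were lower in this way, against 20.1%. At least a 2-fold difference in each of the 3 arms (control, 381 and 1012) was seen for 39 probe sets (56.5%; all features 5.86%), and at least a 4-fold difference for 29 (42%; all features 2.45%), in each case with K562 higher. The opposite 2-fold difference was seen for 1 probe set (1.45%; all features 7.42%), and a 4-fold one for 0 (all features 3.11%). A fold here and below is on the scale log2(signal + 17), which understates changes of dim probe sets.

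With every feature tested and limma's adjusted p under 0.05, 46 of the 69 histone probe sets (66.7%) were higher in K562, against 15.1% of all features, and 2 (2.9%) were lower, against 16.2%. The median log2 difference was 1.96 over the 69 and 0.047 over all features. Among the 50 histone probe sets above the filter on low signal, 44 were called, each of them higher in K562, where 58% of the 27278 tested features were called in either direction and 27.8% higher. A probe set that is dim in Jurkat passes that filter through its K562 level and had to differ, so the count over all 69 is the one to read. In these bulk RNA pools, a larger share of cells expressing a gene and more RNA per expressing cell cannot be told apart.

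**Figure D1:**
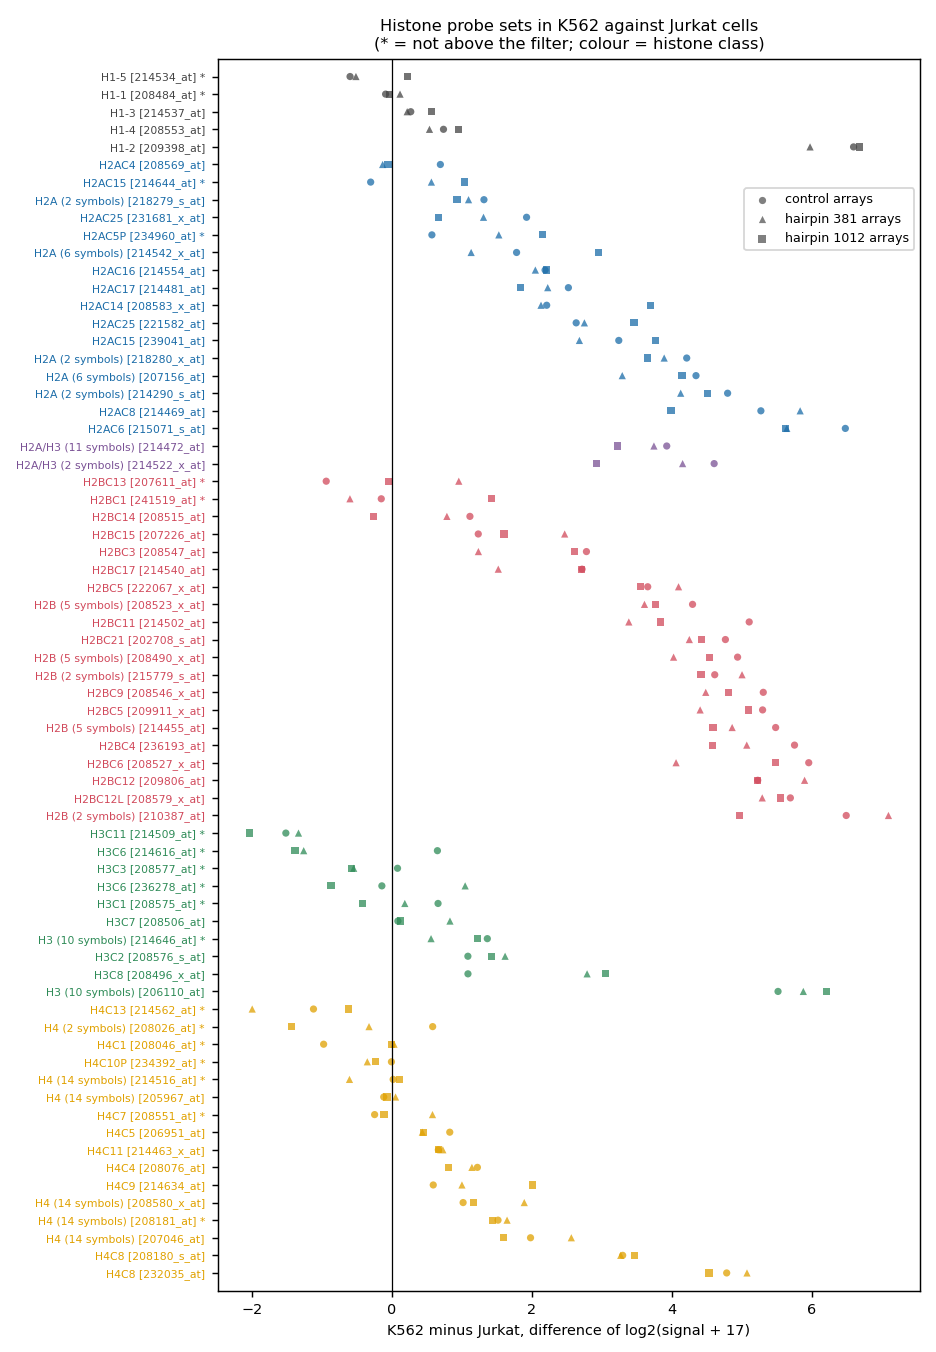
Difference between K562 and Jurkat in log2(signal + 17) for each of the 69 histone probe sets (rows, coloured by class), with 1 point for the control arrays, 1 for hairpin 381 and 1 for hairpin 1012. H2A and H2B rows lie mostly far to the right of 0, H3 and H4 rows mostly near 0, and H1-2 stands apart from the other linker histones.

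**Figure D2:**
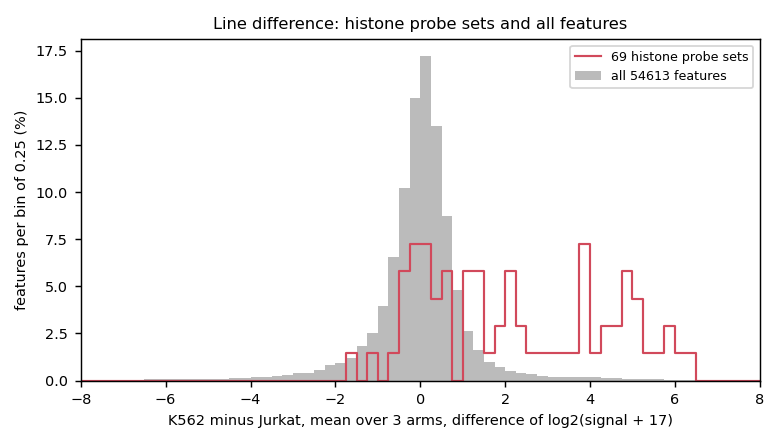
Distribution of the K562 minus Jurkat difference (x axis, mean of 3 arms, log2 scale) as the percent of features per bin (y axis), for all 54613 features in grey and the 69 histone probe sets as a red line. The grey distribution is centred near its median of 0.047, and the histone line extends to 6.42.

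The linker histones differed sharply among themselves. H1-2, which binds linker DNA between nucleosomes, read 208 on the control, 310 on the 381 and 178 on the 1012 array of Jurkat, and 21803, 20621 and 20086 on the same arrays of K562. The Jurkat and K562 values did not overlap, and the log2 difference was 6.42 ± 0.15 (SE; 85.8-fold; limma adjusted p = 2.93e-10). H1-3 read 312, 285 and 250 in Jurkat and 379, 334 and 377 in K562, with a log2 difference of 0.35 ± 0.18 (SE) that did not pass the test (limma adjusted p = 0.117). H1-4 differed by 0.74 ± 0.24 (SE; limma adjusted p = 0.0214 among filtered features and 0.0630 with every feature tested). H1-1 and H1-5 were below the filter on mean signal. With every feature tested, 1 of the 5 linker probe sets was called, and their median log2 difference was 0.35.

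Among H2A probe sets, which code for a partner of the H2A-H2B dimer, 14 of 16 were called higher in K562 with every feature tested and 0 lower, with a median log2 difference of 2.44. H2AC6 read 95.6, 175 and 149 on the Jurkat control, 381 and 1012 arrays and 10053, 9617 and 8203 on those of K562. Its groups did not overlap, and the log2 difference was 5.92 ± 0.18 (SE; 60.6-fold; limma adjusted p = 1.41e-09). H2AC25, an H2A gene of the old HIST3 cluster, read 392, 486 and 139 in Jurkat and 2521, 3371 and 1697 in K562 on its brighter probe set, a log2 difference of 2.95 ± 0.18 (SE), and its second probe set differed by 1.30 ± 0.30 (SE). Both H2AC25 probe sets were called, but by amounts that differ, so the size of its difference depends on which is read. The second is dim in Jurkat and of the _x_at kind, whose probes may also match other transcripts. H2AC15 split further: 1 probe set differed by 3.23 and passed, and the other, below the filter, differed by 0.43 and did not. H2AC4 read 66.1, 106 and 90.3 in Jurkat and 117, 95.4 and 85.9 in K562, overlapping groups with a log2 difference of 0.17 ± 0.27 (SE).

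The H2B probe sets showed the highest median of the single classes, 4.49 on the log2 scale, with 17 of 20 called higher and 0 lower with every feature tested. H2BC12 read 912, 351 and 777 on the Jurkat control, 381 and 1012 arrays and 34835, 21980 and 29735 on those of K562. The lines were far apart on each arm, with a log2 difference of 5.45 ± 0.13 (SE; 43.8-fold; limma adjusted p = 4.16e-10). H2BC12L, a close copy of it, read 426, 300 and 371 in Jurkat and 22944, 12413 and 18164 in K562, a log2 difference of 5.51 ± 0.12 (SE). The probe set of H2BC12L is of the _x_at kind, whose probes may also match other transcripts, so RNA of the copies cannot be assigned with certainty.

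H2BC21, an H2B gene of the old HIST2 cluster, read 40.4, 85.1 and 60.7 in Jurkat and 1546, 1929 and 1656 in K562, a log2 difference of 4.48 ± 0.18 (SE; 22.4-fold). H2BC4 read 13.5, 47.8 and 19.9 in Jurkat and 1629, 2166 and 866 in K562, a log2 difference of 5.14 ± 0.24 (SE). H2BC5 was higher in K562 on both of its probe sets, by 4.94 ± 0.17 and 3.77 ± 0.15 (SE), and H2BC9 by 4.87 ± 0.17 (SE). The probe sets of H2BC5 and H2BC9 are also of the _x_at kind, so their values may include other transcripts. None of these H2B genes had overlapping lines. H2BC14 differed by 0.54 ± 0.33 (SE; limma adjusted p = 0.183), and H2BC1 and H2BC13 were below the filter and not called.

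H3 and H4 behaved less uniformly. Of the 10 H3 probe sets, 4 were called higher and 1 lower with every feature tested, with a median of 0.24. The brightest, annotated to 10 H3 genes, read 53.8, 49.2 and 28.6 in Jurkat and 3230, 3887 and 3371 in K562, a log2 difference of 5.87 ± 0.18 (SE). H3C2 read 72.6, 64.0 and 72.3 in Jurkat and 173, 231 and 223 in K562, a smaller log2 difference of 1.38 ± 0.23 (SE) that also passed. H3C11, below the filter on mean signal, went the other way: it read 55.5, 42.6 and 73.8 in Jurkat and 8.28, 6.55 and 5.09 in K562, a log2 difference of -1.63 (limma adjusted p = 0.00346 with every feature tested). The K562 values of H3C11 lie under the pseudocount of 17 and have little meaning as levels.

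Of the 16 H4 probe sets, 8 were called higher and 1 lower with every feature tested, with a median of 0.63. H4C8 was measured by 2 probe sets. The first read 22.5, 17 and 20.2 in Jurkat and 1073, 1129 and 845 in K562, a log2 difference of 4.80 ± 0.21 (SE), and the second differed by 3.34 ± 0.19 (SE). Both put K562 above Jurkat on every arm. H4C11 read 305, 256 and 290 in Jurkat and 492, 434 and 470 in K562, a log2 difference of 0.68 ± 0.17 (SE; limma adjusted p = 0.00490). The brightest H4 probe set, annotated to 14 H4 genes, read 28404, 26346 and 28391 in Jurkat and 26140, 27267 and 26996 in K562. Those values overlap, and the log2 difference was -0.05 ± 0.05 (SE; limma adjusted p = 0.484); this probe set was called lower in K562 after quantile normalization (-0.14, adjusted p = 0.0466) and after cyclic loess (-0.22, adjusted p = 0.0133). The deposited signals do not say whether so bright a probe set was near the limit of the scanner. The single H4 probe set called lower was H4C13, at 49.8, 79.6 and 65.8 in Jurkat and 13.7, 7.14 and 36.9 in K562.

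**Figure D3:**
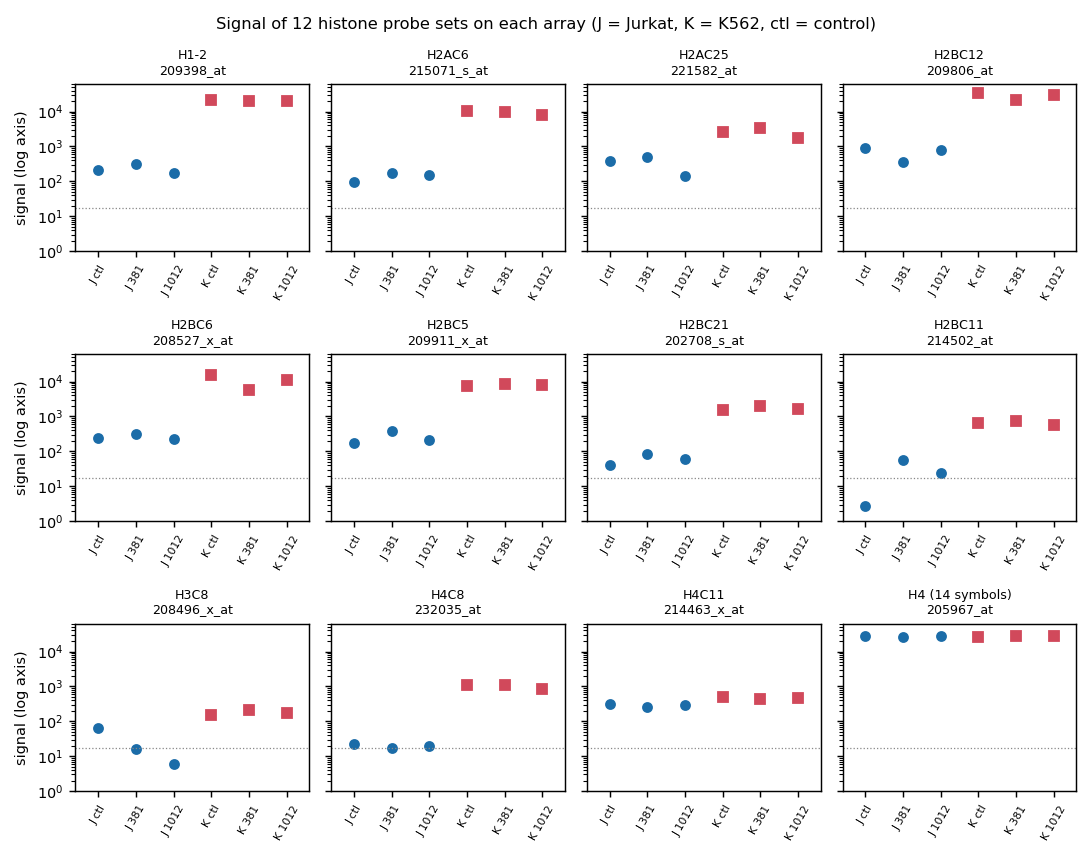
Deposited signal (y axis, log scale) of 12 histone probe sets on the 6 arrays (x axis; blue circles Jurkat, red squares K562), with a dotted line at the pseudocount of 17. H1-2, H2AC6, H2BC12 and H4C8 show a wide step between the lines, and the H4 probe set with 14 symbols shows none.

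The H2A and H2B genes often lie head to head, with starts less than 500 bases apart, and RefSeq starts gave 8 such pairs with 194 to 248 bases between them. H2AC6 and H2BC4, whose upstream bases are printed above, differed between lines by 5.92 and 5.14 on the log2 scale. H2AC17 and H2BC17 differed by 2.19 and 2.31. H2AC14 and H2BC14 did not keep step, at 2.68 and 0.54. The H2AC14 probe set is of the _x_at kind, so its value may include other transcripts. In the other 5 pairs at least 1 gene had no probe set of its own or had probe sets that disagree.

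Of the 47 histone probe sets that are not of the _x_at or _s_at kind, with no filter, 27 (57.4%) were higher on each K562 array than on any Jurkat array, against 19.2% of all features of that kind. Of the 49 with a single symbol, 32 (65.3%) were, against 21.7% of all single-symbol features. The poly(A) spike-in controls, RNAs added before labelling, had a median log2 signal of 8.52 to 9.01 on the Jurkat arrays and 7.71 to 8.50 on the K562 arrays, opposite in direction to the histone probe sets. The 3' to 5' signal ratio of GAPDH was 1.15 to 1.17 in Jurkat and 1.22 to 1.36 in K562. That of ACTB was 8.43 to 9.99 in Jurkat and 7.54 to 11.1 in K562, overlapping between the lines. The part of these array differences in the histone result was not tested.

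Silencing of ZFX brought no histone probe set past the threshold in either line. ZFX itself, as the mean over its 4 probe sets, stood at 53.8% of its control level on the Jurkat 381 array and at 39.0% on Jurkat 1012, and at 37.8% and 30.7% on the same arrays of K562. In Jurkat, 0 of the 50 tested histone probe sets and 0% of all tested features were called by limma at an adjusted p of 0.05. At an unadjusted p under 0.05, 5 of 50 (10%) passed, against 3.62% of all features. Among the 5 were H2BC11 and H3C8, which are dim in Jurkat and passed the filter through their K562 level. This share is therefore not read as an excess. The median histone log2 difference was 0.13, and that of all features -0.02.

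In K562, 0 of 50 and again 0% of all tested features were called, with 1 of 50 (2%) at an unadjusted p under 0.05 against 4.8% of all features. The median was -0.07, and that of all features -0.01. Averaged over both lines, 0 of 50 and 0% of all features were called, 4 of 50 (8%) passed at an unadjusted p under 0.05 against 5.88%, and the median was 0.03. With 1 control array per line and 2 residual degrees of freedom, the standard errors in a single line ran from 0.11 to 0.68 on the log2 scale. Changes well above these errors also went uncalled. Over all tested features, log2 differences ran from -2.22 to 2.44 in Jurkat and from -2.48 to 2.77 in K562, and 0 were called. A missing call therefore does not show that a gene was unchanged. Leaving out the control of a line leaves no comparison in that line.

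The direction on single arrays was mixed. Against its own control, the median over the 50 tested histone probe sets was 0.23 on the Jurkat 381 array, 0.03 on Jurkat 1012, 0.11 on K562 381 and -0.19 on K562 1012. In Jurkat, 20 of 50 (40%) lay above control on both silenced arrays and 10 (20%) below, against 31.7% and 33.3% of all features. In K562, 13 (26%) lay above and 16 (32%) below, against 31.7% and 34%. On all 4 silenced arrays, 4 (8%) lay above and 4 (8%) below, against 12.9% and 14.3%. Histone probe sets thus lay on both sides of control in each line.

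**Figure D4:**
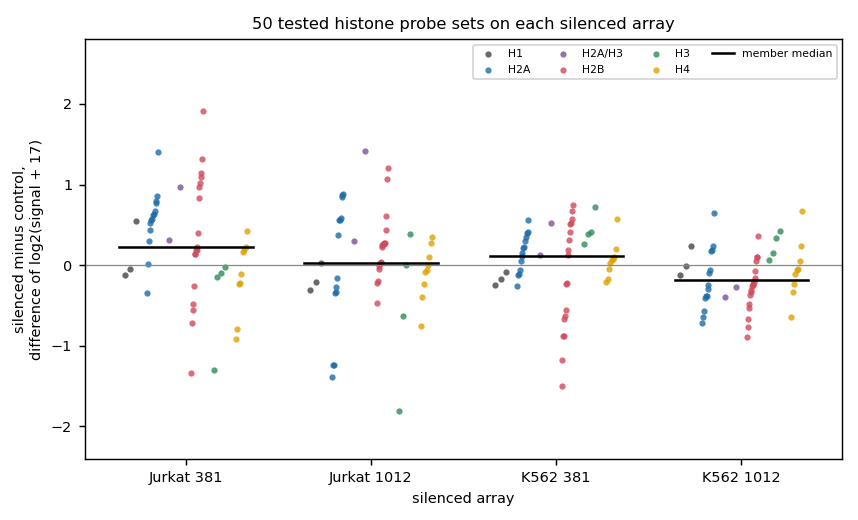
Log2 difference of each silenced array from the control of its line (y axis) for the 50 tested histone probe sets, coloured by class, with the median as a black bar, at 0.23, 0.03, 0.11 and -0.19 from left to right. Points of every core histone class lie on both sides of 0.

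In Jurkat the smallest p-values under silencing went mostly to dim probe sets. H2BC11 read 2.77 on the Jurkat control and 57.6 and 24.3 with hairpins 381 and 1012, a log2 difference of 1.49 ± 0.42 (SE; limma adjusted p = 0.999). Its control value lies under the pseudocount, and in K562 it read 665 on the control and 762 and 573 on the silenced arrays. H3C8 read 64.0 on the Jurkat control and 16 and 6.05 on its silenced arrays (-1.56 ± 0.42, SE; limma adjusted p = 0.999), and read 155, 211 and 174 in K562. Among the 50 tested histone probe sets, these were the ones at least 2-fold from control on both silenced Jurkat arrays. They were 1 up (2%; all features 0.554%) and 1 down (2%; all features 0.202%). None of the 50 was in K562 (all features 0.601% up and 0.455% down). H2BC11 and H3C8 passed the filter on mean signal through their K562 level, and some of their Jurkat values lie under the pseudocount. The Jurkat shares therefore cannot be read as an excess over all features. For H2AC6 the Jurkat log2 difference was 0.67 ± 0.26 and for H2BC21 0.64 ± 0.31 (SE), neither past the threshold.

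In K562 the lowest p-values went to bright H2B probe sets of the _x_at kind, whose probes may also match other transcripts. H2BC6 read 15821 on the control, 5566 with hairpin 381 and 10962 with hairpin 1012, a log2 difference of -1.02 ± 0.39 (SE; limma adjusted p = 0.998). Both silenced arrays lay below the control, with a wide gap between them. Probe sets annotated to 5 H2B genes, H2BC6 among them, gave -0.78 ± 0.35, -0.41 ± 0.28 and -0.08 ± 0.53 (SE). The last of them is not of the _x_at kind. It read 1831 on the K562 control, 2632 with hairpin 381 and 1142 with hairpin 1012. The size of the H2BC6 change thus depends on which probe set is read. H2BC12L differed by -0.61 ± 0.28, H2BC9 by -0.44 ± 0.28, the dim H2BC14 by -0.83 ± 0.53 and H2BC12 by -0.45 ± 0.40 (SE), also short of the threshold. The signal summed over the 69 probe sets was 211016 on the K562 control and 178411 and 179533 on the silenced arrays, and 35584, 34256 and 35254 on the Jurkat arrays in the order control, 381, 1012. That sum counts some genes more than once and leans on the brightest probe sets.

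H2BC12 and H2BC12L were below control on all 4 silenced arrays, with average log2 differences of -0.61 ± 0.28 and -0.47 ± 0.20 (SE; limma adjusted p = 0.830 for each). H1-3 and H4C11 were below control on all 4 as well, by -0.15 and -0.14 on average. H2A probe sets annotated to 6 and to 2 genes were above control on all 4, by 0.81 ± 0.23 and 0.44 ± 0.27 (SE; limma adjusted p = 0.813 and 0.847). The first had the smallest p of the 50 tested histone probe sets in the average. H2BC21 and the brighter H2BC5 probe set were also above control on all 4, by 0.42 ± 0.22 and 0.37 ± 0.23 (SE). So H2B genes lay on both sides, and none passed. The dim probe set of H1-1, under the filter, read 32.9 on the Jurkat control and 4.50 and 4.40 on its silenced arrays, and 29.8, 6.26 and 3.93 in K562 (-1.15 on average, limma adjusted p = 0.873 with every feature tested). In K562, an H3C6 probe set under the filter read 79.0 on the control and 11 and 4 on the silenced arrays, and an H4 probe set with 2 symbols read 51.5, 11.9 and 3.71. These 3 probe sets under the filter were named after their values were seen, and their silenced values lie under the pseudocount.

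Whether silencing moved K562 and Jurkat by different amounts was tested as an interaction. It was called for 0 of 50 histone probe sets and 0% of all tested features, with 3 of 50 (6%) at an unadjusted p under 0.05 against 2.67%. The median interaction, K562 minus Jurkat, was -0.29 over the histone probe sets and -0.01 over all tested features. By class the median was -0.61 for H2B, -0.40 for H2A, 0.48 for H3 and 0.07 for H4 among the tested probe sets. The H3 value rests on 4 probe sets, and over all 10 H3 probe sets the median was 0.03, with 5 above 0 and 5 below. H3C8 had the highest interaction with 1.84 ± 0.59 (SE), and H2BC11 the lowest with -1.50 ± 0.60 (SE; limma adjusted p = 1.00 for each). For H2BC6 it was -1.19 ± 0.56 and for H2AC6 -0.84 ± 0.37 (SE). All of these rest on 1 control array in each line.

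The hairpins 381 and 1012 were compared within each line. Of the 50 tested histone probe sets 1 was called by limma (2%), where 0.77% of all tested features were. At an unadjusted p under 0.05, 13 of 50 (26%) passed against 12.7%. Hairpin 381 gave the higher signal in both lines for 25 of 50 (50%), against 29.7% of all features, and the lower in both for 10 (20%), against 28.2%. None differed at least 2-fold between the hairpins in both lines, where 0.143% of all features were higher and 0.253% lower with hairpin 381. ZFX levels also differed, the 381 arrays being nearer control in both lines, and each hairpin has 1 array per line.

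The probe set called was H2AC25, at 486 with hairpin 381 and 139 with hairpin 1012 in Jurkat, and at 3371 and 1697 in K562. Its log2 difference was 1.34 ± 0.22 (SE; 2.53-fold; limma adjusted p = 0.0250), and the control arrays, at 392 and 2521, lay between the hairpins in each line. The call was lost without the Jurkat 381 array (limma adjusted p = 0.183), the Jurkat 1012 array (0.0605) or the K562 381 array (0.112), with a pseudocount of 4.25 (0.0534), and with no intensity trend in the fit (0.418). The second H2AC25 probe set gave 0.12 ± 0.37 (SE). It is of the _x_at kind and dim in Jurkat, at 24.5, 48.9 and 58.9 on the control, 381 and 1012 arrays. It is therefore not an equal second measurement of the gene.

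Of the 14 tested H2A probe sets 13 had a positive difference, of the 18 H2B probe sets 9 had a positive and 9 a negative one. Of all 27278 tested features 13842 had a positive one. Several of the H2A probe sets share symbols or a gene, so they are not 14 separate measurements. Whether H2A differs as a class was not tested. H2AC14 differed by 1.10 ± 0.35 and H2BC4 by 1.06 ± 0.29 (SE; limma adjusted p = 0.219 and 0.155). H2BC12 was lower with hairpin 381 in both lines, at 351 against 777 in Jurkat and 21980 against 29735 in K562, with a log2 difference of -0.77 ± 0.16 (SE; limma adjusted p = 0.0699). Its copy H2BC12L differed by -0.42 ± 0.14 (SE; limma adjusted p = 0.254). The H2B genes were thus spread over both directions.

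**Figure D5:**
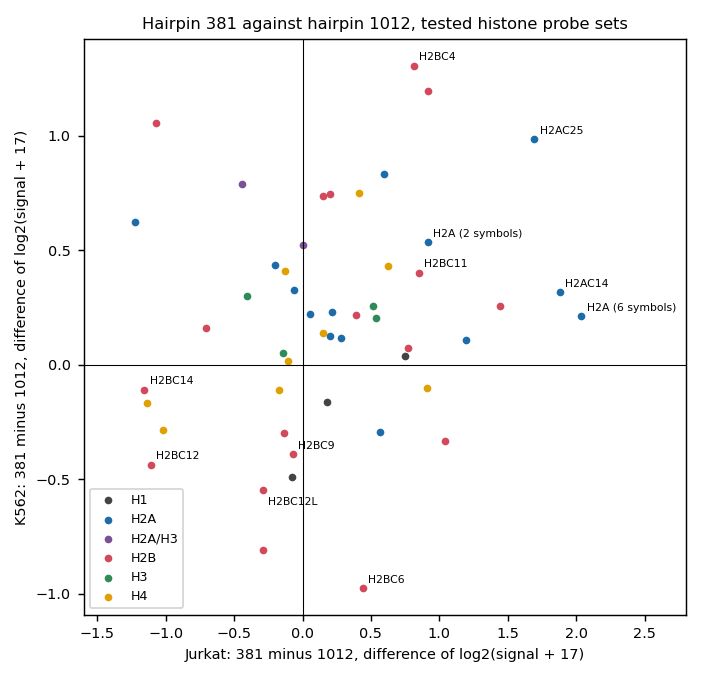
Hairpin 381 minus hairpin 1012 in log2(signal + 17), Jurkat on the x axis and K562 on the y axis, for the 50 tested histone probe sets coloured by class, with 11 of them labelled. The upper right quadrant holds 25 probe sets, among them H2AC25, H2AC14 and H2BC4, and the lower left holds 10, among them H2BC12 and H2BC12L.

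Genes that make, process or deposit histones were given by 4 lists, each gene read from its brightest tested probe set. The first held replacement histones, taken here as variants outside the 63 genes (8 of 12 tested). The others held genes of histone transcription and mRNA processing (21 of 22), histone chaperones (21 of 21) and G1/S regulators and S phase enzymes (29 of 30). Each list had 0 genes called under silencing in Jurkat, in K562, on average or in the interaction without a hairpin block. Between the lines, 3 replacement histones were higher in K562 and 1 lower, 6 processing genes were higher and 6 lower, 6 chaperones higher and 6 lower, and 9 G1/S genes higher and 10 lower. Their medians were 0.03, -0.15, -0.09 and -0.12, with 27.8% of all tested features called higher and 30.2% lower.

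NPAT, the histone coactivator, read 1711, 1766 and 1978 in Jurkat and 1454, 1574 and 1587 in K562, in the order control, 381, 1012. Its line difference of -0.24 ± 0.12 (SE) did not pass (limma adjusted p = 0.115). SLBP, which binds the stem-loop, differed by 0.19 ± 0.08 (SE) and did not pass (0.0772). CASP8AP2, a partner of NPAT at histone loci, was lower in K562 by 0.62 on the log2 scale (-0.62 ± 0.11, SE; limma adjusted p = 0.000664). Of the replacement histones, H2AX was higher in K562 by 0.92 ± 0.15, H2AJ by 2.11 ± 0.28 and H2AZ2 by 0.23 ± 0.08 (SE), and H1-10 was lower (-1.23 ± 0.15, SE). These differences are far smaller on the log2 scale than the 6.42 of H1-2 or the 5.45 of H2BC12, which are among the largest. Against the median of 1.96 over the 69 histone probe sets, H2AJ was higher and the other replacement histones named were lower. H2AJ and H2AX exceeded the medians of H1 (0.35), H3 (0.24) and H4 (0.63), and H2AZ2 and H1-10 did not.

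E2F1, an activator of S phase genes, had the smallest p of its list in the average of both lines. It read 49.0 on the Jurkat control and 279 and 312 with hairpins 381 and 1012, and 46.0, 185 and 289 in K562. All 4 silenced arrays lay above the controls, with a log2 difference of 2.11 ± 0.26 (SE; limma adjusted p = 0.668), which did not pass. With the hairpin as a replicate block in the fit, the same difference had a standard error of 0.24 and passed (limma adjusted p = 0.0302), the 1 call among the list genes in that fit. CCND2, a D-type cyclin, gave -0.59 ± 0.18 and MCM5, a subunit of the replicative helicase, -0.39 ± 0.20 (SE; limma adjusted p = 0.813 and 0.836). NPAT, SLBP and CASP8AP2 gave 0.12 ± 0.16, 0.07 ± 0.10 and -0.09 ± 0.16 (SE; limma adjusted p = 0.931, 0.931 and 0.948).

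In the other lists, the smallest p-values under silencing went to H1-10, H2AZ1 and H2AZ2, with average log2 differences of -0.43 ± 0.19, 0.14 ± 0.08 and 0.08 ± 0.10 (SE; limma adjusted p = 0.830, 0.836 and 0.925). Among processing genes they went to NCBP2, of the cap-binding complex, ZNF473, of the U7 processing machinery, and LSM1, with 0.41, 0.34 and 0.18. Among chaperones they went to ASF1B, TONSL and RBBP4, with 0.52, 0.56 and -0.38. None passed the threshold. Between hairpins RBBP4 was the 1 list gene called, at 0.57 (limma adjusted p = 0.0491).

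Marker genes were read as a check of the labelled lines. All 10 T lineage markers were higher on each Jurkat than on each K562 array, with summed signals of 72500 to 82800 against 2990 to 3560. Of 8 erythroid and myeloid markers measured for K562, 5 were higher on each K562 array 1, TAL1, was higher on each Jurkat array, and TFRC and ALAS2 overlapped between the lines, with sums of 70000 to 95100 in K562 against 30900 to 42600. The 3 B-cell markers summed to 166 to 273 over all arrays. The monocyte sum was 1730 to 2080 in K562 and 105 to 169 in Jurkat, carried by LYZ alone, with CD14 at 41.7 or less. The fibroblast sum was 634 to 1050 in K562 against 194 to 335 in Jurkat, with COL1A2 at 245 to 773 in K562 and 19.0 to 34.6 in Jurkat, COL1A1 at 146 to 291 over all arrays, and COL3A1 and DCN at 69.4 or less. The pairwise correlation of arrays across all tested features was 0.976 to 0.982 within a line and 0.718 to 0.739 between lines.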

How the data were processed

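The deposited values are linear signal intensities, 1 per probe set and array, made by the authors with MAS5, per the submitters' processing notes; its version is not given in the sources used here. Every array had a trimmed mean of about 500 as deposited. From them log2(signal + 17) was computed here with no further normalization. The 62 array controls were left out, and features were tested whose mean log2 value exceeded the median (a signal of 54.5): 27278 in all, 50 of the 69 histone probe sets and not the other 19. Entrez identifiers of the 49 single-symbol probe sets were looked up in RefSeq, and 0 symbols changed. The array files name no genome build, so coordinates are given only with RefSeq sequences.

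Tests used limma 3.58.1 in R 4.3.3 with empirical Bayes and an intensity trend. Silencing was fitted on 6 arrays as 4 groups (2 residual and 6.34 prior degrees of freedom), so its spread is that between hairpins. Lines and hairpins were compared in an additive fit of line and arm (prior degrees of freedom 8.26, residual 2). All p-values are two-sided and Benjamini-Hochberg adjusted over all tested features, with a threshold of 0.05. They measure the spread between arrays, which are pools, and not between cultures; the number of arrays limits the precision. The code was tested on simulated data.

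Whether hairpin numbers pair arrays across lines was checked by the correlation of hairpin deviations over tested features, 0.18, with 2 hairpins only. Alternatives were the pseudocount, the filter, normalization, the trend, the probe sets used, a hairpin block, single-line fits and each array left out. The histone genes and the lists were chosen with earlier results of these data known. Named genes are the members with 1 symbol and the smallest p in each direction of each comparison (8 per direction under silencing, on the same side on every silenced array; 5 for hairpins and the interaction; 10 for the lines), those called, and the 2 brightest per class, with other probe sets of a named gene. In the lists they are the 3 smallest p of the average and E2F1, NPAT, SLBP and CASP8AP2. Members outside this rule that are named (H2AC15's second probe set, H1-1, H1-5, H3C4, H3C6, H3C11, H4C13, H2BC1, H2BC13 and the divergent pairs) and list genes named for the lines (H2AX, H2AJ) were chosen after their values were seen. So were the H2A and H2B probe sets with several symbols that are described under silencing.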

Additional observations from a re-analysis of the deposited data

How the results depend on the processing

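Counts under silencing stayed at 0 of the histone probe sets in Jurkat, K562, the average and the interaction in every alternative run, including the hairpin as a replicate block, where 0 histone probe sets and 9 features in all, E2F1 among them, were called in the average. The 35 median values under alternatives moved by less than the spread between arrays. That spread, a standard deviation over silenced arrays, was 0.14 in Jurkat, 0.21 in K562 and 0.18 for the average. It exceeds the medians themselves, at 0.13, -0.07 and 0.03, so this check cannot show that their signs held. On single K562 arrays the median was 0.11 with hairpin 381 and -0.19 with hairpin 1012. In the line comparison 44 of the 50 tested histone probe sets were called, where 58% of all tested features were. The count was 19 of 20 with the filter at the 75th percentile and 26 of 31 with 1 probe set per gene. It was 22 of 28 without _x_at and _s_at probe sets and 29 of 34 with 1 symbol. Each of these settings had fewer probe sets to test. With an array left out it was 43 to 44. The shares of all features at these settings are not given. These are counts of probe sets above the filter, some of which passed it through their K562 level, so the count over all 69 is the one to read. In the hairpin comparison 1 was called; the count was 0 with a pseudocount of 4.25 and with no trend, 2 with a pseudocount of 68 and with the 75th percentile filter (H2AC25 and H2BC12), and 0 to 2 with an array left out. It was 0 without the Jurkat 381 or Jurkat 1012 array and 2 without K562 1012 (H2AC25 and H2AC14); without K562 381 the 1 called was H2BC12. Over all features the hairpin count of 210 became 130 and 300 with the smaller and larger pseudocount, 126 with no filter, 341 with the 75th percentile filter, 110 with 1 probe set per gene, 0 with no trend and 38 to 266 with an array left out; the cause was not tested. The sign turned for H2AC14 in the interaction without Jurkat 1012 (range with an array left out -0.24 to 1.64) and for H2BC9 between hairpins without K562 381 (range -0.52 to 0.055); neither was called. Leaving out a control gives no silencing value for that line, so none is given. Signals under the pseudocount of 17 limit what dim members such as H1-1 and H3C11 can show.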
